A study of Mus musculus with 12 samples.

Results

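Mouse embryonic stem (ES) cells deficient for both Ring1B and Eed were compared with ES cells deficient for Ring1B alone. The comparison used the 3 arrays titled Ring1B/Eed double deficient and the 3 arrays titled Ring1B deficient, 6 of the 12 arrays in the series, and every gene to which the array annotation gives 1 symbol. Of 18193 such genes, 13985 passed a filter on low signal and were tested. The remaining 6 arrays, 3 of Eed deficient and 3 of wild type cells, entered the estimate of the spread and a second contrast, Eed deficient minus wild type, that shares no array with the first.

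The double deficient cells were derived from the Eed deficient ES cells, in which Ring1B was targeted in turn. The Ring1B deficient line carries a targeted Ring1B mutation and keeps Eed, the Eed deficient line carries a targeted Eed mutation and keeps Ring1B, and the wild type line keeps both. Ring1B is thus missing from both genotypes compared here, and Eed from the double deficient cells. The labels name no second line for any genotype, so differences between genotypes and differences between lines cannot be told apart, and the double deficient cells share their line history with the Eed deficient cells, not with the Ring1B deficient cells. Total RNA was extracted with Trizol from cells whose undifferentiated state had been judged from colony morphology, and the titles call the 3 arrays of each genotype biological replicates. Whether feeder cells were present is not given in the sources used here.

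Polycomb proteins keep developmental genes silent in ES cells through 2 kinds of complex. Polycomb repressive complex 2 (PRC2) methylates lysine 27 of histone H3 and needs Eed, the subunit that binds the methyl mark and stimulates the catalytic subunit Ezh2. Polycomb repressive complex 1 (PRC1) ubiquitinates histone H2A through Ring1B, encoded by Rnf2, or its paralogue Ring1. Some PRC1 complexes are brought to chromatin by the PRC2 mark and others bind without it.

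Eed was measured first, as a check on the labels. The brighter of its probe sets gave signals of 87.1, 47.5 and 79.1 in the double deficient arrays, against 1463, 1496 and 1969 in the Ring1B deficient arrays. It averaged 37.8 in Eed deficient and 1428 in wild type cells, so both genotypes labelled as lacking Eed lay far below the other genotypes. On the scale used throughout, log2(signal + 5), where a difference of 1 is 2-fold, Eed was lower by −4.46 (SE 0.24, adjusted p = 3.4e-07). The brightest Rnf2 probe set gave 383 ± 18.8 in double deficient and 468 ± 65.7 in Ring1B deficient cells (SD, n = 3), against 779 in Eed deficient and 851 in wild type cells. The double deficient minus Ring1B deficient difference of Rnf2 did not pass the test (−0.28, SE 0.16, adjusted p = 0.25). Where the Rnf2 probes lie relative to the deleted part is not given in the sources used here, so the remaining Rnf2 signal does not check the labels.

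At an adjusted p under 0.05 (limma, Benjamini-Hochberg over all tested genes), 1781 genes were higher in double deficient cells, 12.7% of those tested, and 836 were lower, 5.98%. A difference of at least 2-fold was also reached by 839 of the higher genes (6%) and 119 of the lower genes (0.851%). In 26% of all genes every double deficient array lay above every Ring1B deficient array, and in 14% below. The arrays' own levels bear on this split. Median signals were 24.7, 23.3 and 28.0 in the double deficient arrays, against 21.2, 19.7 and 20.4 in the Ring1B deficient arrays, although every array had been scaled by the submitters to a trimmed mean of 100, and the median difference over all genes was 0.11. With quantile normalization that median was 0.01 and the counts were 1301 higher and 955 lower; with each array centred on its median it was −0.14 and the counts were 963 higher and 2225 lower. The excess of higher calls lay among dim genes. Where the higher genotype mean was at most 104, 1005 of 6993 genes were higher (14.4%) and 121 lower (1.73%). Above it 776 of 6992 were higher (11.1%) and 715 lower (10.2%). Shares of all genes printed beside gene lists below are not matched for signal level unless a level is stated. Leaving out single arrays of the 2 genotypes lowered both counts. They were 983 higher and 341 lower without double deficient replicate 3, and 1093 and 482 without Ring1B deficient replicate 3. The lower count was 448 without double deficient replicate 1 and 546 without Ring1B deficient replicate 2.

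**Figure D1:**
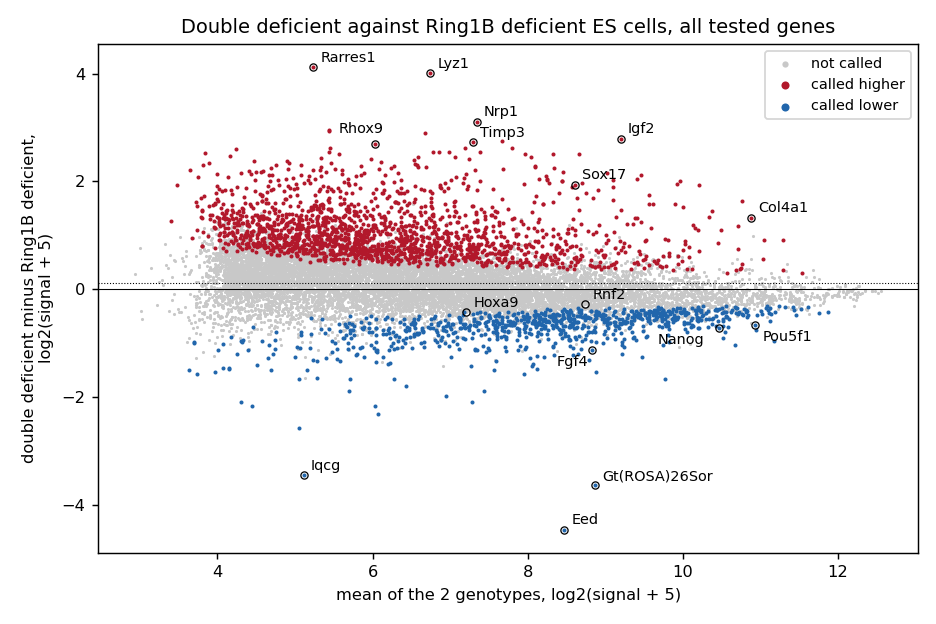
Difference between double deficient and Ring1B deficient cells against the mean of the 2 genotypes, both on the log2(signal + 5) scale, with 1 point for each of 13985 tested genes (red, 1781 called higher; blue, 836 called lower; grey, not called; dotted line, median of all genes at 0.11). Eed and Gt(ROSA)26Sor lie apart at the bottom, and Rarres1 and Lyz1 at the top.

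The cells of both genotypes expressed the genes that define ES cells. Pou5f1, the POU transcription factor that maintains pluripotency, gave 1713, 1423 and 1514 in double deficient arrays, against 2196, 2471 and 2676 in Ring1B deficient arrays. Nanog, a homeodomain factor of the same network, gave 1183, 1024 and 1082 in double deficient arrays, against 1625, 1857 and 1933 in Ring1B deficient arrays. For both genes every double deficient array lay below every Ring1B deficient array, and both fell (Pou5f1 −0.66, SE 0.11, adjusted p = 0.0017; Nanog −0.72, SE 0.13, adjusted p = 0.0023). Of 30 pluripotency genes tested, 5 fell (16.7%) and none rose, against 5.98% and 12.7% of all genes. Among all genes with a higher genotype mean above 104, 10.2% fell. The median difference was −0.31, against 0.11 over all genes and −0.03 over those above 104. With arrays centred on the median 11 pluripotency genes fell. Besides Pou5f1 and Nanog, the falls were Fgf4, the ERK-activating growth factor of ES cells (305 ± 52.5 in double deficient and 667 ± 65.2 in Ring1B deficient cells, −1.12, SE 0.16), Tdgf1, the Nodal co-receptor (−0.44, SE 0.09), and Utf1, a chromatin protein of ES cells (−1.07, SE 0.24). Utf1 rests on its brightest probe set: the probe set with the largest spread gave 0.92 and did not pass. Sox2 (1787 ± 382 in double deficient and 2197 ± 307 in Ring1B deficient cells) and Esrrb (284 ± 44.4 in double deficient and 442 ± 121 in Ring1B deficient cells) did not pass. Zfp42 averaged 2478 in double deficient and 2829 in Ring1B deficient cells and Dppa5a 4532 in double deficient and 4600 in Ring1B deficient cells, and neither passed. In whole cultures a change in the share of cells of a type cannot be told apart from a change in RNA per cell, here and in every result that follows.

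Among the genes with the largest rises were several of the extracellular matrix. Timp3, a tissue inhibitor of metalloproteinases, gave 327, 477 and 389 in double deficient arrays, against 49.5, 73.5 and 46.2 in Ring1B deficient arrays (2.72, SE 0.26, adjusted p = 3.6e-05). Col1a2, a chain of type I collagen, gave 676, 884 and 697 in double deficient arrays, against 148, 161 and 85.8 in Ring1B deficient arrays (2.51, SE 0.31). The lowest double deficient array of each gene was several-fold above the highest Ring1B deficient array. Col5a2, a fibrillar collagen chain, rose by 2.61 (541 ± 50.3 in double deficient and 85.9 ± 22.7 in Ring1B deficient cells), and S100a4, a calcium-binding protein of motile mesenchymal cells, by 2.52 (951 ± 196 in double deficient and 167 ± 61.2 in Ring1B deficient cells). Of 25 tested genes listed as fibroblast and feeder cell markers, 17 rose (68%, against 12.7% of all genes) and none fell. The median difference was 1.52. Col1a1, Col3a1, Postn, Fn1, Vim and Thy1 were among those that rose, and Fap, Lum, Pdgfrb, Mmp2 and Fbln1 among those that did not pass. Summed over the 25 genes, signal was 11595 to 12112 in the double deficient arrays, against 3179 to 4122 in the Ring1B deficient arrays. It was 5717, 5519 and 11670 in Eed deficient replicates 1, 2 and 3, and 4297 to 4919 in wild type arrays, so 1 of the 3 Eed deficient arrays reached the double deficient level. No gene of this list was at 0; Fap averaged 14.1 and Lum 18.6 in double deficient cells, against 6.42 and 9.90 in Ring1B deficient cells. The part of feeder or other fibroblast cells in these differences was not tested.

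Genes listed as actin contractile moved in the same direction as the matrix genes. The list also holds genes outside the contractile apparatus: Lmna, of the nuclear lamina, and the secreted proteins Ccn1 and Ccn2. These are counted among the rises below, though Lmna (0.76) lost its call in 5 leave-outs of 1 array and with arrays centred on the median. Of 23 tested, 20 rose (87%, against 12.7% of all genes) and none fell, with a median of 1.32. With arrays centred on the median 16 rose and 1 fell. The exceptions were Actn4, an actin crosslinker (−0.22), Tagln2 (0.05) and Myl6, a myosin light chain of nearly all cells (0.09), which did not pass. Contractile genes are classic targets of serum response factor, which binds the CArG box, a motif of 10 bases with an A/T-rich core that reads the same way on both strands. Promoter windows of 300 bases, 250 before and 50 after the RefSeq start, were available for 20 of the 23 genes, and 5 windows held a CArG box (25%), against 1.3% of the windows of tested genes and 1.57% of all 27025 RefSeq windows. The 5 genes, Acta1, Actc1, Cnn2, Myl9 and Vcl, were all among the 20 that rose, though Actc1 lost its call without Ring1B deficient replicates 1 or 3 or double deficient replicates 1 or 3, and with quantile normalization. A match is a description of these letters, not of a bound site. With 20 of the 23 listed genes rising, a rise of all 5 genes with a match adds nothing on the motif. The share of 25% comes from a list of genes of a class known as targets. The part of the motif in the rises was not tested. The windows of 4 genes with stable calls are printed from the RefSeq table to show where the motif lies, with the CArG box in capitals.
Myl9 promoter, chr2:156775214-156775513, GRCm38.p6, plus strand: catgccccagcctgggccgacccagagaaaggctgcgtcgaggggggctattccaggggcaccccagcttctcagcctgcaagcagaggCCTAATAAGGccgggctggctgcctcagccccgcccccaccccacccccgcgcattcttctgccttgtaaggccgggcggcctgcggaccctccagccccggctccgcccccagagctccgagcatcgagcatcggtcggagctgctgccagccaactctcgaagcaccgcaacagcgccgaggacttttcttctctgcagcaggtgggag
Acta1 promoter, chr8:123894726-123895025, GRCm38.p6, minus strand: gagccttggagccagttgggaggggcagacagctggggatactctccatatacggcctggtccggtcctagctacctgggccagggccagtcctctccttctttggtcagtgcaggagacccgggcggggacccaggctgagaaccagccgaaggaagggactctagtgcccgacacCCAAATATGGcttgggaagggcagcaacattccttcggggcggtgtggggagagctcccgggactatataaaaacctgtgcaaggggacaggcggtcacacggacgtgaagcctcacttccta
Cnn2 promoter, chr10:79988350-79988649, GRCm38.p6, plus strand: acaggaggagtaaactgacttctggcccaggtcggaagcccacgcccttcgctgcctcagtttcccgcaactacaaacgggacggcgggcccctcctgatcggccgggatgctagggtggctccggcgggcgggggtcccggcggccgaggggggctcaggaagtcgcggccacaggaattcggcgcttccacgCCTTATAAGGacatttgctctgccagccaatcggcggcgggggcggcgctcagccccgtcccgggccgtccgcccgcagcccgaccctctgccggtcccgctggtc
Vcl promoter, chr14:20929148-20929447, GRCm38.p6, plus strand: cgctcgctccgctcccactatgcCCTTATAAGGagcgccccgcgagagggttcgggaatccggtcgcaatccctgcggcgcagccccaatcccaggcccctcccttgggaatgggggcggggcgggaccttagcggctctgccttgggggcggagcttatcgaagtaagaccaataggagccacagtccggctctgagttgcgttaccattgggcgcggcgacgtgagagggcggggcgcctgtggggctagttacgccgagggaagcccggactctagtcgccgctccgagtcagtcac

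Myl9, the regulatory light chain of smooth muscle and non-muscle myosin, gave 519, 820 and 506 in double deficient arrays, against 132, 92.2 and 96.5 in Ring1B deficient arrays (2.45, SE 0.28, adjusted p = 0.00015). Acta1, skeletal muscle actin, gave 129, 213 and 134 in double deficient arrays, against 20.4, 59.3 and 16.4 in Ring1B deficient arrays (2.29, SE 0.49, adjusted p = 0.0064). Neither gene's groups overlapped, and Acta1 varied more between arrays of each genotype. Cnn2, an actin-binding calponin, averaged 598 ± 64.7 in double deficient and 241 ± 52.8 in Ring1B deficient cells (1.31, SE 0.16). Vcl, vinculin of focal adhesions, averaged 727 ± 12.6 in double deficient and 361 ± 57.9 in Ring1B deficient cells (1.01, SE 0.14). Tagln, Ccn1, Cnn1 and Acta2, whose windows held no match or which had no window, rose by 2.05, 2.12, 2.63 and 1.96. Summed signal of the contractile list was 16472 to 19665 in double deficient arrays, against 6931 to 8467 in Ring1B deficient arrays. It was 12239, 14020 and 16937 in Eed deficient replicates 1, 2 and 3, and 7860 to 10089 in wild type arrays. The fibroblast marker sums above moved with it, and their part in the contractile difference was not tested.

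The lysozyme genes also stood near the top. Lyz1 gave 349, 527 and 356 in double deficient arrays, against 38.2, 10.3 and 19.5 in Ring1B deficient arrays (4.01, SE 0.92, adjusted p = 0.0092), and Lyz2 rose by 2.91 (SE 0.71). The genes are near-identical copies, so their signals are not fully separate measurements. Of 10 macrophage genes tested, 6 rose (60%, against 12.7% of all genes) and 1 fell (10%, against 5.98%). Without double deficient replicate 2 or replicate 3 only 3 rose. The gene that fell was Laptm5, a lysosomal protein of blood cells (104 ± 22.7 in double deficient and 229 ± 30.4 in Ring1B deficient cells). Besides Lyz1 and Lyz2, the genes that rose were Ctss (2.12), Cd14 (1.41), Csf1r (1.18) and Adgre1 (1.10). Of these Ctss alone kept its call whichever array was left out. Ptprc, Tyrobp, Itgam, Mpeg1 and Aif1, also on the list, were below the filter on low signal. Summed over the 10 genes, signal was 863 to 1294 in double deficient and 424 to 474 in Ring1B deficient arrays, and 322 to 507 in wild type arrays. It was 341, 432 and 1382 in Eed deficient replicates 1, 2 and 3. Replicate 3 alone reached the double deficient level, and it was also the Eed deficient array with the high fibroblast marker sum. In that array Lyz1 gave 631, against 41.6 and 20.2 in Eed deficient replicates 1 and 2. The part of other cell types in these rises was not tested.

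Several transcription factors of primitive endoderm, an extraembryonic layer that forms beside the pluripotent cells, were higher in double deficient cells. Sox17 gave 724, 857 and 692 in double deficient arrays, against 160, 196 and 227 in Ring1B deficient arrays (1.94, SE 0.18, adjusted p = 2.7e-05). Gata6, which can by itself turn ES cells into endoderm, gave 271, 308 and 299 in double deficient arrays, against 102, 146 and 134 in Ring1B deficient arrays (1.18, SE 0.18, adjusted p = 0.00081). In wild type cells the same genes averaged 14.1 and 22.6, so both mutant genotypes lay well above wild type and the double deficient cells above the Ring1B deficient cells. Gata4 (1.06, SE 0.18), Sox7 (1.41, SE 0.31) and Foxa2 (1.04, SE 0.19) also rose. In all, 5 of 14 endoderm transcription factors rose (35.7%, against 12.7% of all genes) and none fell, with a median of 0.39. Hnf4a, Foxa1, Hhex and Eomes were among the 9 that did not pass.

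Few of the products that visceral endoderm makes were called. Of 15 tested uptake and carrier genes, 1 rose (6.67%, against 12.7% of all genes) and none fell (against 5.98%), with a median of −0.19. The difference between these shares was not tested. Cubn, the cubilin receptor of the absorptive surface, gave 345, 296 and 362 in double deficient arrays, against 333, 462 and 445 in Ring1B deficient arrays. Dab2, the endocytic adaptor of that surface, gave 502, 350 and 503 in double deficient arrays, against 427, 614 and 691 in Ring1B deficient arrays. The groups overlapped for both genes and neither passed the test (Cubn −0.29, SE 0.37; Dab2 −0.34, SE 0.32). Ttr, a carrier of thyroid hormone and retinol, ranged from 120 to 309 in double deficient arrays and from 35.6 to 388 in Ring1B deficient arrays (0.46, SE 0.81), so the groups overlapped widely. The gene that rose was Cited1, a transcriptional coactivator (260 ± 81.5 in double deficient and 88.9 ± 42.5 in Ring1B deficient cells, 1.54, SE 0.35).

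Basement membrane genes, which primitive endoderm expresses strongly, rose in 9 of 15 cases (60%, against 12.7% of all genes) and none fell. Their median was 0.91. Col4a1, a chain of type IV collagen, gave 2495, 3374 and 3044 in double deficient arrays, against 1164, 1440 and 956 in Ring1B deficient arrays (1.33, SE 0.17). Lama1, the laminin chain of the first embryonic basement membrane, gave 1241, 1426 and 1236 in double deficient arrays, against 407, 503 and 393 in Ring1B deficient arrays (1.58, SE 0.16). For both genes the lowest double deficient array lay above the highest Ring1B deficient array. Col4a2 (1.59), Lamb1 (1.10), Lamc1 (1.21), Nid1 (0.92), Sparc (0.91) and Col4a5 (1.79) rose too, while Col18a1 (−0.51), Lama5 (−0.25) and Nid2 (−0.13) did not pass.

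**Figure D2:**
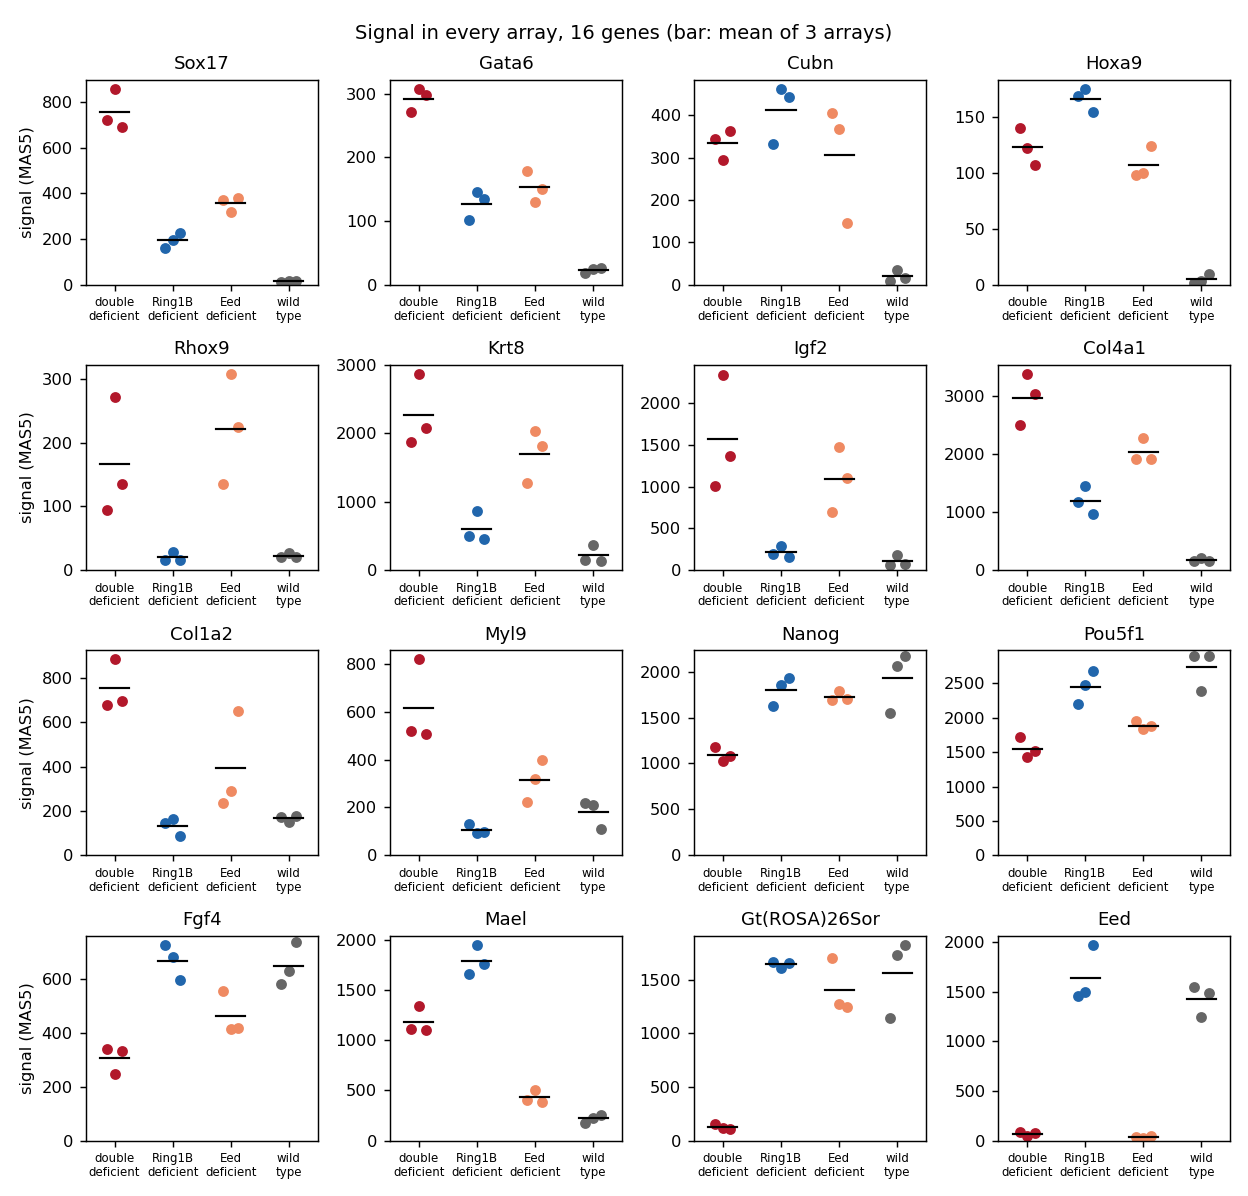
MAS5 signal of 16 genes in every array, by genotype (points, 3 arrays each; bars, their mean; linear axes from 0). Sox17 and Col4a1 were highest in the double deficient cells, Cubn and Hoxa9 lay at similar levels in all 3 mutant genotypes, Gt(ROSA)26Sor was low in double deficient cells alone among the 4 genotypes, and Eed was low in both genotypes that lack it.

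Trophoblast genes rose in 8 of 20 cases (40%, against 12.7% of all genes) and none fell (median 0.63). The largest were Rhox9 (93.5, 271 and 135 in double deficient arrays, against 15.7, 27.9 and 15.8 in Ring1B deficient arrays; 2.69, SE 0.35) and Rhox6 (302 ± 122 in double deficient and 53.7 ± 30.8 in Ring1B deficient cells; 2.45, SE 0.36), X-linked homeobox genes of the placenta. Plac1, a placental gene also on the X chromosome, rose by 2.41 (SE 0.21), and Gata2 by 1.78 (SE 0.17). Keratins of simple epithelia rose with them. Krt8 gave 1869, 2865 and 2084 in double deficient arrays, against 501, 857 and 456 in Ring1B deficient arrays (1.93, SE 0.34), and Krt19 rose by 1.73 (SE 0.40). Ets2, another transcription factor of the list, rose by 0.69, a call lost without double deficient replicate 2, with arrays centred on the median and with the probe set of largest spread. Cdx2 and Hand1 did not pass: Cdx2 averaged 37.5 in double deficient and 23.7 in Ring1B deficient cells (0.56, SE 0.34), and Hand1 52.8 in double deficient and 28.1 in Ring1B deficient cells (0.73, SE 0.33). Hand1 passed once double deficient replicate 1, its lowest double deficient array, was left out.

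Of 23 epithelial genes, counting regulators of the epithelial-mesenchymal transition, 8 rose (34.8%, against 12.7% of all genes) and none fell (median 0.57). The count was 5 without Ring1B deficient replicate 3 or without double deficient replicate 2. The list shares its keratins with the trophoblast list. The members included genes of both states: Snai2, a repressor of epithelial genes (94.8 ± 13.2 in double deficient and 18.9 ± 9.67 in Ring1B deficient cells, 2.14), and Cdh2, N-cadherin (134 ± 35.9 in double deficient and 39.8 ± 9.0 in Ring1B deficient cells, 1.62), rose beside Dsp, desmoplakin (1.12). Cdh1, E-cadherin of ES cells, did not pass (2829 ± 160 in double deficient and 2422 ± 303 in Ring1B deficient cells, 0.23).

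**Figure D3:**
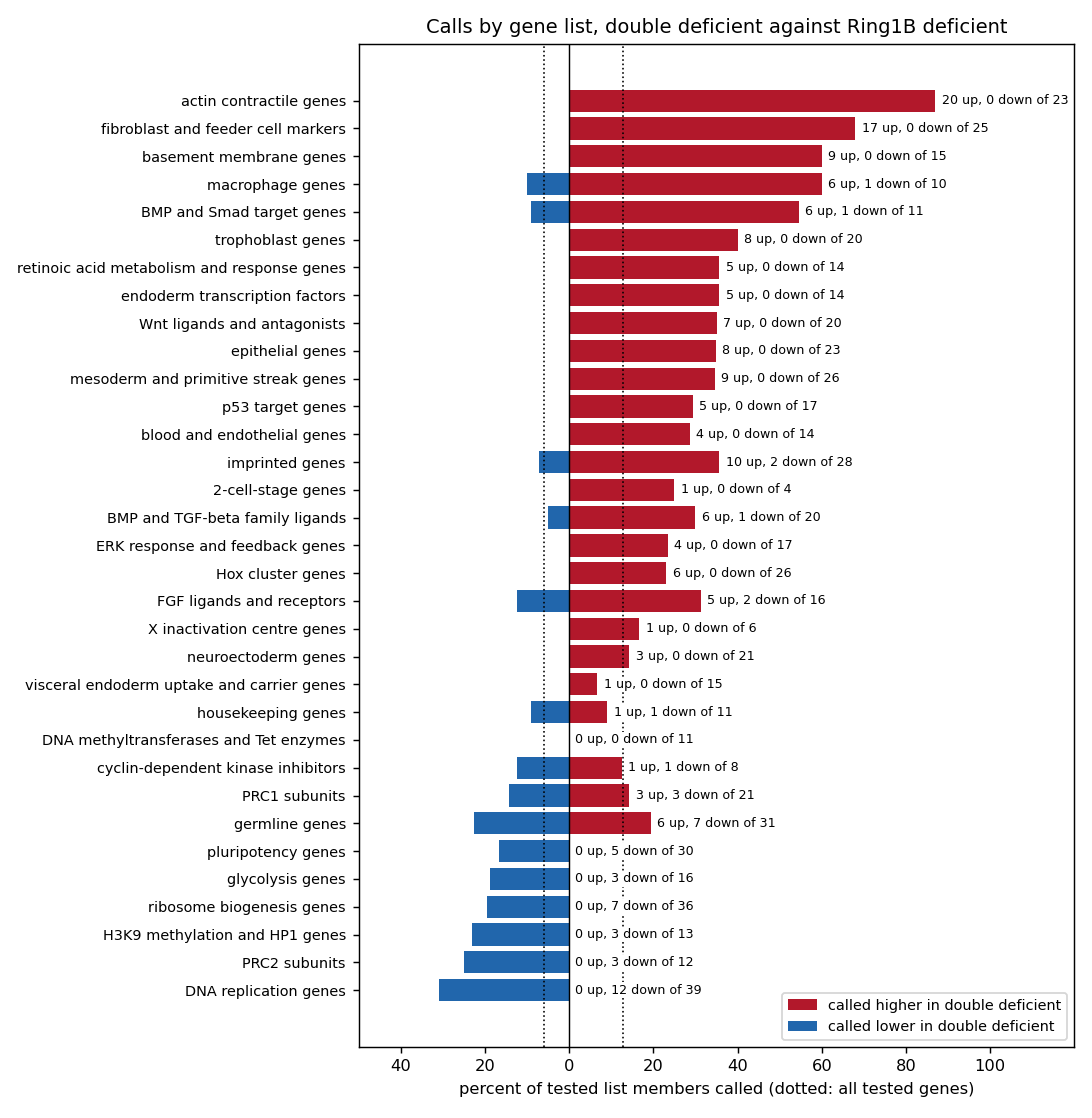
Percent of the tested members of each gene list called higher (red, right) or lower (blue, left) in double deficient against Ring1B deficient cells, with counts beside the bars; lists overlap in some members. Dotted lines mark all tested genes, 12.7% higher and 5.98% lower; actin contractile genes (20 of 23) stand at the top and DNA replication genes (12 of 39 lower) at the bottom.

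Imprinted genes, expressed from 1 parental allele, included some of the brightest rises. Igf2, the fetal growth factor expressed from the paternal allele, gave 1004, 2343 and 1361 in double deficient arrays, against 194, 289 and 160 in Ring1B deficient arrays (2.80, SE 0.40, adjusted p = 0.00059). Plagl1, a zinc finger factor expressed from the paternal allele, gave 685, 714 and 665 in double deficient arrays, against 219, 141 and 149 in Ring1B deficient arrays (2.02, SE 0.18). Peg3 (1.97, SE 0.19), Dlk1 (2.11, SE 0.36) and Ndn (1.59, SE 0.13), likewise expressed from the paternal allele, also rose. In all 10 of 28 rose (35.7%, against 12.7% of all genes) and 2 fell (7.14%, against 5.98%), with a median of 0.39. With arrays centred on the median 6 rose and 4 fell. Airn (0.91) and Kcnq1ot1 (0.75), also of the paternal allele, rose too, with calls lost when some single arrays were left out. Rian, a long non-coding RNA of the Dlk1 domain expressed from the maternal allele, rose by 1.34 (SE 0.25). Igf2r (0.85) and Grb10 (0.63), known as mainly maternally expressed genes, rose whichever array was left out, but not with arrays centred on the median. Cdkn1c, a cyclin-dependent kinase inhibitor likewise expressed from the maternal allele, fell by 0.83 on the log2 scale (250 ± 14.7 in double deficient and 453 ± 90.6 in Ring1B deficient cells). The other imprinted gene that fell was Nnat, of the paternal allele (−1.13, adjusted p = 0.045), a call lost in 8 of the leave-outs of 1 array. Whether direction differed between genes of the maternal and paternal allele was not tested. Of 8 cyclin-dependent kinase inhibitors, Cdkn1c was the only one that fell (12.5%, against 5.98% of all genes). Cdkn2b, a target of Polycomb repression in many cell types, was the only one that rose (12.5%, against 12.7%). Cdkn2b gave 341, 333 and 346 in double deficient arrays, against 74.3, 71.4 and 62.2 in Ring1B deficient arrays (2.22, SE 0.35). Its neighbour Cdkn2a (68.5 ± 2.13 in double deficient and 42.3 ± 9.32 in Ring1B deficient cells) did not pass.

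Secreted signals and their antagonists rose in several families. Of 20 ligands of the BMP and TGF-beta family, 6 rose (30%, against 12.7% of all genes) and 1 fell (5%, against 5.98%). Inhba, the activin A subunit, gave 298, 273 and 294 in double deficient arrays, against 76.5, 45.5 and 77.5 in Ring1B deficient arrays (2.07, SE 0.45). Bmp8b (2.12), Bmp2 (1.48) and Tgfb2 (1.54) rose as well, with means of 65.9, 66.5 and 59.8 in double deficient cells, against 11.1, 20.7 and 18.2 in Ring1B deficient cells, and Bmp4 and Nodal did not pass. Inhbb, the activin B subunit, fell (83.3 ± 15.5 in double deficient and 337 ± 132 in Ring1B deficient cells, −1.88, SE 0.46); without Ring1B deficient replicate 3 it missed the threshold (adjusted p = 0.055). Fst, follistatin, which binds activins, rose by 2.55 (273 ± 61.0 in double deficient and 43.1 ± 14.1 in Ring1B deficient cells). Of 11 BMP and Smad target genes 6 rose (54.5%, against 12.7% of all genes) and 1 fell (9.09%, against 5.98%), with a median of 0.73. With arrays centred on the median 3 rose, and without double deficient replicate 2 the count was 2. It was 3 without double deficient replicates 1 or 3 or Ring1B deficient replicates 2 or 3. Fst and the homeobox gene Msx2 (1.55) rose whichever array was left out, and Id3 (1.38), Smad7 (1.19), Grem1 (1.37) and Msx1 (0.65) were the others that rose. The member that fell was Id1, an inhibitor of basic helix-loop-helix factors (387 ± 27.3 in double deficient and 905 ± 175 in Ring1B deficient cells, −1.20, SE 0.25).

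Among Wnt ligands and antagonists 7 of 20 rose (35%, against 12.7% of all genes) and none fell (median 0.59). The count was 4 without Ring1B deficient replicate 3 or without double deficient replicate 3. Dkk1, an inhibitor of the Wnt co-receptors, gave 185, 260 and 208 in double deficient arrays, against 28.6, 39.6 and 59.9 in Ring1B deficient arrays (2.26, SE 0.23). Wnt4 rose by 2.24 (SE 0.44) and Frzb, a secreted Wnt antagonist, by 1.99 (SE 0.43), whereas Axin2, a common readout of Wnt signalling, did not pass (0.27). Of 16 FGF ligands and receptors 5 rose (31.2%, against 12.7% of all genes) and 2 fell (12.5%, against 5.98%). With quantile normalization or without double deficient replicate 2, 2 rose. The count was 3 with arrays centred on the median or without Ring1B deficient replicate 3 or double deficient replicate 1. It was 1 without Ring1B deficient replicate 2 or double deficient replicate 3. Those that rose were Fgf1 (1.01), Fgf7 (1.61), Fgf13 (0.72), Fgfr2 (0.88) and Fgfrl1, a receptor without a kinase domain (1.16, SE 0.21), which kept its call whichever array was left out. Fgf17 fell beside Fgf4 (19.6 ± 6.43 in double deficient and 57.0 ± 17.2 in Ring1B deficient cells, −1.32, SE 0.29). Of the ERK-induced genes, Dusp5 (1.66) and Ier3 (1.66) rose while Dusp6, Spry4, Etv5 and Egr1 did not pass. Cyp26a1, the enzyme that degrades retinoic acid, gave 291, 319 and 299 in double deficient arrays, against 73.3, 70.9 and 51.4 in Ring1B deficient arrays (2.15, SE 0.16, adjusted p = 8.5e-06), and Crabp2, a retinoic acid binding protein, rose by 1.01 (SE 0.19).

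Of 26 Hox genes tested, the best known Polycomb targets, 6 rose (23.1%, against 12.7% of all genes) and none fell (median 0.41), and 2 rose with quantile normalization or with arrays centred on the median. Without Ring1B deficient replicate 2 or double deficient replicate 2, 3 rose, and without Ring1B deficient replicate 3 or double deficient replicates 1 or 3, 2 rose. Hoxb9 (40.1 ± 9.46 in double deficient and 14.2 ± 2.24 in Ring1B deficient cells, 1.22, SE 0.25) and Hoxc9 (74.2 ± 3.95 in double deficient and 38.5 ± 5.58 in Ring1B deficient cells, 0.87, SE 0.19) kept their calls whichever array was left out. Hoxa9, at 140, 122 and 107 in double deficient arrays, against 169, 175 and 155 in Ring1B deficient arrays, lay lower in every double deficient array but did not pass (−0.42, SE 0.24). Of 26 genes of mesoderm and the primitive streak, 9 rose (34.6%, against 12.7% of all genes) and none fell. The count was 4 without Ring1B deficient replicate 3, 3 without double deficient replicate 3 and 5 with the stricter filter on low values, and with arrays centred on the median 5 rose and 1 fell. Tbx20, a heart T-box factor, rose most (124 ± 7.88 in double deficient and 32.8 ± 5.73 in Ring1B deficient cells, 1.78, SE 0.23), followed by Msx2 (1.55) and Hand2 (1.25). Of 21 neuroectoderm genes 3 rose (14.3%, against 12.7% of all genes), and none did without Ring1B deficient replicate 3 or without double deficient replicate 3.

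Germline genes, several of which are held silent by DNA methylation and by a variant PRC1, split in direction. Of 31 tested, 6 rose (19.4%, against 12.7% of all genes) and 7 fell (22.6%, against 5.98%), with a median of −0.39. Stag3, a meiotic cohesin subunit, gave 71.6, 89.8 and 74.5 in double deficient arrays, against 201, 210 and 176 in Ring1B deficient arrays (−1.26, SE 0.16). Tex14, of the germ cell bridges, fell by 1.39 on the log2 scale (40.7 ± 6.51 in double deficient and 114 ± 7.11 in Ring1B deficient cells), and Hormad2, of the meiotic chromosome axis, by 1.33. Tex13b, an X-linked testis gene, gave 433, 359 and 407 in double deficient arrays, against 66.1, 57.3 and 67.9 in Ring1B deficient arrays (2.56, SE 0.21). Sycp1, of the synaptonemal complex (1.69, SE 0.28), and Sohlh2, a germ cell transcription factor (1.16, SE 0.26), rose. With arrays centred on the median 3 germline genes rose and 11 fell.

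Genes of proliferation and basic metabolism leaned lower by small amounts. Of 39 DNA replication genes 12 fell (30.8%, against 10.2% of all genes with a higher genotype mean above 104) and none rose, with a median of −0.39. But the count was 7 with quantile normalization and 32 with arrays centred on the median. It was also 7 without Ring1B deficient replicate 2, 5 without Ring1B deficient replicate 3 or double deficient replicate 2, 6 without double deficient replicate 1 and 4 without double deficient replicate 3. Pola2, a subunit of the primase-polymerase (123 ± 28.1 in double deficient and 207 ± 2.23 in Ring1B deficient cells, −0.75, SE 0.16), and Gins1 and Gins4 of the replicative helicase (both −0.53) kept their calls. Of 36 ribosome biogenesis genes 7 fell (19.4%, against 5.98% of all genes and 10.2% of those above 104) and none rose. The count was 4 with quantile normalization or without the intensity trend, 15 with arrays centred on the median, 3 without Ring1B deficient replicate 3 and 2 without double deficient replicate 3. Dkc1, the pseudouridine synthase of small nucleolar RNPs (−0.80, SE 0.17), and Nob1, a nuclease of small subunit maturation (−0.79, SE 0.13), kept theirs. Of 13 genes of H3K9 methylation and HP1 proteins 3 fell (23.1%, against 5.98% of all genes). Among them were Cbx5, encoding HP1 alpha (489 ± 34.9 in double deficient and 804 ± 51.0 in Ring1B deficient cells, −0.71, SE 0.11), and the methyltransferase gene Suv39h2 (−0.76, SE 0.13). None of 11 DNA methyltransferase and Tet genes was called in either direction, against 12.7% of all genes called higher and 5.98% lower.

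Of 12 PRC2 subunits 3 fell, among them Eed, the targeted gene itself. This share of 25% stands against 5.98% of all genes and 10.2% of those with a higher genotype mean above 104. Of 21 PRC1 subunits 3 rose (14.3%, against 12.7% of all genes) and 3 fell (14.3%, against 5.98%). Eed and Phc2 were the only ones called whichever array was left out. Ezh2 averaged 872 ± 42.2 in double deficient and 1167 ± 105 in Ring1B deficient cells (−0.41, SE 0.13, adjusted p = 0.040), a call lost with quantile normalization (adjusted p = 0.14) and without Eed deficient replicate 3 or any 1 of the 6 arrays compared but Ring1B deficient replicate 2. Suz12 (627 ± 59.5 in double deficient and 702 ± 49.1 in Ring1B deficient cells) and Ring1 (47.7 ± 0.87 in double deficient and 44.3 ± 2.94 in Ring1B deficient cells) did not pass. Phc2, a PRC1 subunit, rose by 0.58 (158 ± 1.05 in double deficient and 104 ± 9.97 in Ring1B deficient cells), but not with arrays centred on the median (adjusted p = 0.13).

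Among the genes named for the size of their rise, Rarres1, a retinoid-inducible gene, gave 112, 210 and 133 in double deficient arrays, against 0.86, 6.8 and 4.5 in Ring1B deficient arrays (4.12, SE 0.34, adjusted p = 1.6e-05). The Ring1B deficient signals of Rarres1 lay around the 20th percentile of those arrays (4.20 to 4.74), so its size depends on the value added before log2: it was 5.10 with 1 added and 1.87 with 50. Nrp1, a co-receptor for semaphorins and VEGF, gave 419, 388 and 584 in double deficient arrays, against 76.8, 34.1 and 42.4 in Ring1B deficient arrays (3.11, SE 0.33). Tmem163 (2.96), Serpinb6b (2.94) and the myelin protein gene Pmp22 (2.63) followed. The largest fall after Eed was Gt(ROSA)26Sor, the non-coding transcript of the Rosa26 locus, a common site of transgene insertion in mouse ES cells. It gave 156, 118 and 112 in double deficient arrays, against 1665, 1609 and 1659 in Ring1B deficient arrays (−3.64, SE 0.18, adjusted p = 2.8e-07), and averaged 1408 in Eed deficient and 1567 in wild type cells. Whether any of these lines carries an insertion there is not given in the sources used here. Iqcg, a protein of sperm flagella and cilia, gave 1.81, 8.72 and 6.44 in double deficient arrays, against 90.5, 115 and 117 in Ring1B deficient arrays (−3.45, SE 0.27). Its double deficient signals lay around the 20th percentile of those arrays (5.15 to 7.10), and the difference was −4.20 with 1 added before log2 and −1.50 with 50. Ndufa4l2 (−2.32), Aire (−2.17), Bora (−2.09), Pla2g1b (−1.97), Inhbb (−1.88), Sox15 (−1.80), Bbs2 (−1.66), Zfas1 (−1.66) and Gab1 (−1.54) followed among genes whose groups did not overlap.

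Lines without and with Eed were also compared where Ring1B is kept. The double deficient cells derive from the Eed deficient cells, so differences shared by the contrasts cannot be assigned to loss of Eed rather than to line history. Eed deficient minus wild type gave 1509 higher genes (10.8%) and 637 lower genes (4.55%). Of the genes higher in double deficient than in Ring1B deficient cells, 718 were also higher there, 40.3% of the first list and 47.6% of the second, and 211 were lower in both, 25.2% of the first and 33.1% of the second. In opposite directions lay 18 and 18 genes. Across the 13985 genes, which are not independent replicates, the 2 differences correlated at Pearson r = 0.49. The difference between them was tested itself: it was above 0 for 99 genes (0.708%) and below 0 for 167 (1.19%), and 138 of the genes called between double and Ring1B deficient cells were among these.

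Visceral endoderm products and Hox genes differed downward most often among the lists. Summed signal of the visceral endoderm list overlapped between double deficient (3068 to 3596) and Ring1B deficient arrays (2996 to 4964), against 1169 to 1407 in wild type arrays. For the Hox list it was higher in double deficient (1732 to 1778) than in Ring1B deficient arrays (1228 to 1466), against 307 to 355 in wild type arrays. Of 15 visceral endoderm uptake and carrier genes, 12 rose in Eed deficient against wild type cells (median 2.40), and for 5 the difference between backgrounds passed. For Cubn, Dab2 and Amot, a tight junction protein, it passed whichever array was left out. For Ttr and Spink1 it missed the threshold without wild type replicates 2 or 3, Ring1B deficient replicate 2 or any of the double deficient replicates, and for Ttr also without wild type replicate 1 or Ring1B deficient replicate 1 and for Spink1 without Ring1B deficient replicate 3, which leaves 3 or 4 genes. Cubn averaged 306 in Eed deficient and 19.2 in wild type cells, against 334 in double deficient and 413 in Ring1B deficient cells, a difference between backgrounds of −3.98 (adjusted p = 0.0019). Dab2 behaved alike (−3.81, adjusted p = 0.0010). Of 26 Hox genes, 19 rose in Eed deficient against wild type cells (median 1.54) and 10 differed between backgrounds. Hoxa9 led them (107 in Eed deficient and 4.69 in wild type cells, −4.03, adjusted p = 3.1e-05). Hoxc13 and Hoxd11 each missed the threshold in 7 of the 12 leave-outs of 1 array, and Hoxd10 without double deficient replicate 3. With 50 added before log2, Hoxc9, Hoxc13, Hoxd10 and Hoxd11 missed it. Sox17, Col4a1, Col4a2 and Lama1 rose in both backgrounds, by less where Ring1B was missing (differences of −2.32, −2.22, −1.87 and −2.01). Srgn, the serglycin proteoglycan, averaged 876 in double deficient and 1403 in Ring1B deficient cells, against 1030 in Eed deficient and 58.7 in wild type cells (−4.73, adjusted p = 1.7e-06). No gene of the fibroblast marker or contractile lists differed between backgrounds at this threshold, although 17 and 20 rose in double deficient cells and 7 and 11 in Eed deficient cells; a missed threshold does not show equal differences.

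A smaller group differed the other way. Meg3, the maternally expressed RNA of the Dlk1 domain, averaged 132 ± 13.3 in double deficient and 43.8 ± 6.68 in Ring1B deficient cells, against 107 in Eed deficient and 944.5 in wild type cells. Its difference between backgrounds was 5.07 (adjusted p = 0.0029), and that of its neighbour Rian 4.35 (adjusted p = 3.1e-05). Against wild type cells, Eed deficient cells had less Meg3 (−3.58) and Rian (−3.01). Double deficient minus Ring1B deficient gave 1.34 for Rian, which rose, and 1.49 for Meg3, which did not pass (adjusted p = 0.053). Meg3 did pass in the limma fit of the 6 compared arrays alone (adjusted p = 0.00029) and when any 1 Eed deficient replicate was left out. It also passed with the replicate block and with the probe set of largest spread (2.22), and in no other setting. Rarres1 (3.13), Nxf3 (3.48) and Neurod1 (2.64) also differed upward. Gt(ROSA)26Sor differed by −3.50 and Pla2g1b by −2.01, with Eed deficient cells close to wild type for both.

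**Figure D4:**
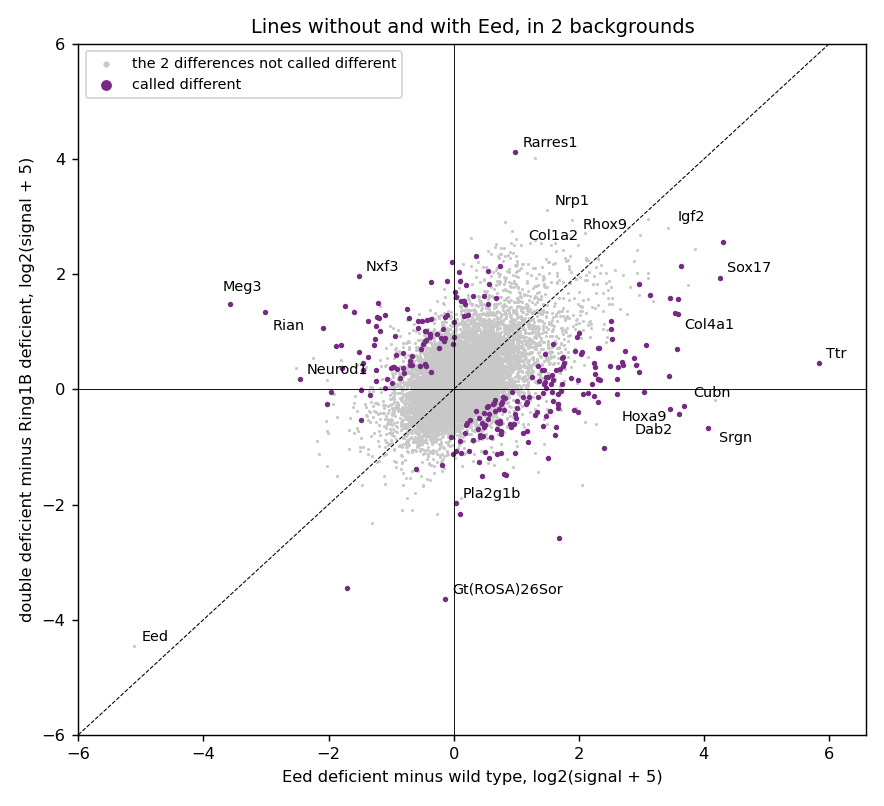
Double deficient minus Ring1B deficient (vertical) against Eed deficient minus wild type (horizontal), both on the log2(signal + 5) scale, for 13985 genes; purple marks the 99 and 167 genes whose 2 differences differed, and the dashed line marks equal differences. Cubn, Dab2, Hoxa9 and Srgn lie far right near the middle of the vertical axis, Meg3 and Rian far left, and Gt(ROSA)26Sor low in the centre.

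By chromosome, the far end of chromosome 14 stood out in the same 2 contrasts; it was singled out after its values were seen, so no test is given. From Mzt1 to the last gene, in RefSeq gene order, 25 genes had a mean above 104 in at least 1 genotype. All 25 were below 0 in double minus Ring1B deficient cells, with a median of −0.80, and 13 fell, 52%, against 10.4% of the 231 such genes earlier on the chromosome (median −0.05). In Eed deficient minus wild type cells 23 of the 25 were below 0 (median −0.72), while the medians were −0.01 in double minus Eed deficient and 0.15 in Ring1B deficient minus wild type cells. Ipo5, a nuclear import receptor, gave 681, 564 and 664 in double deficient arrays, against 1299, 1336 and 1153 in Ring1B deficient arrays, and averaged 585 in Eed deficient and 1338 in wild type cells. Pcca, a subunit of propionyl-CoA carboxylase, averaged 114 ± 3.51 in double deficient and 242 ± 4.66 in Ring1B deficient cells, against 120 in Eed deficient and 235 in wild type cells. The differences of double minus Ring1B deficient cells were −0.98 (SE 0.13) and −1.05 (SE 0.13) for these genes. The stretch also holds the pluripotency factor Klf5 and the ERK feedback gene Spry2, and Bora, among the largest falls, is its second gene. Genotype and line history cannot be told apart for these genes.

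**Figure D5:**
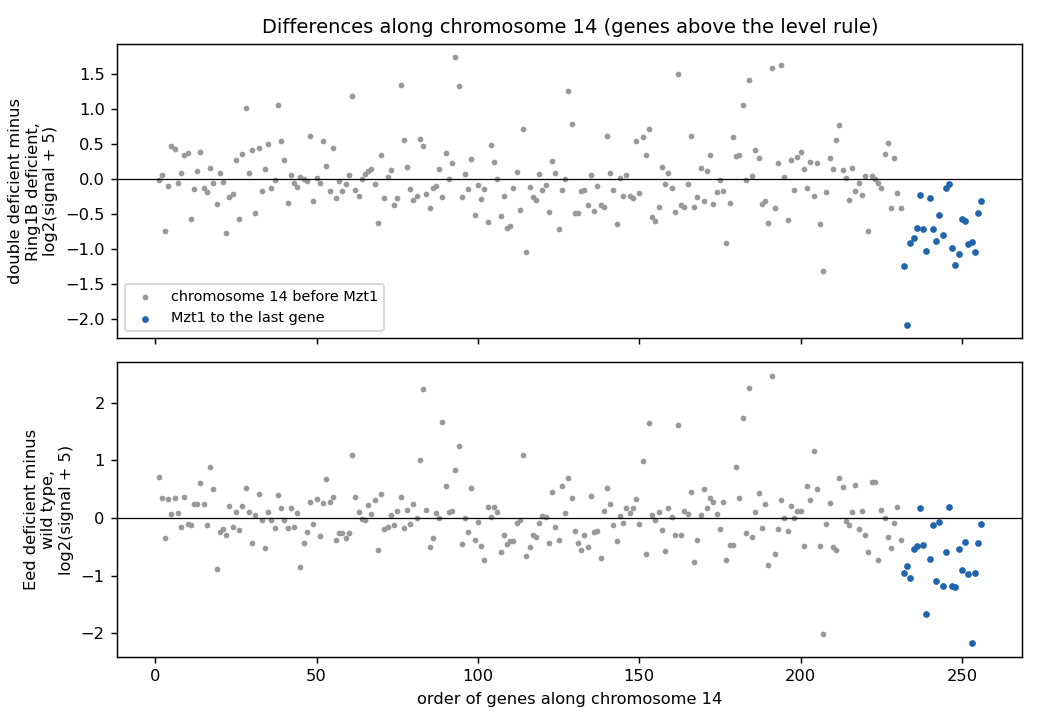
Differences of 256 genes in their order along chromosome 14, in double minus Ring1B deficient cells (top) and Eed deficient minus wild type cells (bottom), on the log2(signal + 5) scale. The 25 genes from Mzt1 to the end (blue) have medians of −0.80 and −0.72, while the 231 before it (grey) scatter around 0.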

How the data were processed

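The deposited value table holds 1 signal per probe set and array. The authors' intensity values are on a linear scale and come from MAS5 according to the submitters' processing notes. The program's version and settings, detection calls and scan dates are not given in these sources. From the values, every array had been scaled to a trimmed mean of 100. Of 45101 probe sets, 64 controls were left out, 34945 had 1 gene symbol, 932 several and 9160 none here; 0 columns of samples were unused.

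Each gene was represented by its probe set of highest mean signal, and genes above the 40th percentile of the array in at least 3 of 12 arrays were tested on log2(signal + 5) with limma 3.58.1 (R 4.3.3), 1 mean per genotype, intensity trend, Benjamini-Hochberg adjustment and a threshold of 0.05. The script was tested on simulated data. SDs are of signals, n = 3. The number of arrays limits the precision. Columns were matched to arrays by title, and replicates of a genotype correlated at 0.963 to 0.984.

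Genes were named by rule: the 12 largest changes each way with no overlap of arrays and a level above 104, from each list as many as 4 by size and 2 of opposite sign, the 5 largest differences between backgrounds each way, and a few fixed genes. AU018091 would have ranked among the falls but is a clone symbol. Other list members named in the text were chosen after their values were seen. The gene lists and the comparison were chosen with earlier results of these data known. Alternatives changed the normalization, the value added before log2, the filter, the probe set, the arrays, the intensity trend and the replicate block. Promoter windows and gene order come from RefSeq GRCm38.p6 tables. T was not analysed here.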

Additional observations from a re-analysis of the deposited data

Results flagged for a closer look

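The genes in this section were picked out because the double deficient minus Ring1B deficient difference itself differed from the Eed deficient minus wild type difference in the limma fit. Values are the first difference minus the second, on the log2(signal + 5) scale.

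Below 0 and largest were Ttr (−5.38), Srgn (−4.73), Hoxa9 (−4.03), Cubn (−3.98) and Dab2 (−3.81). These genes were higher in Eed deficient than in wild type cells by 3.46 to 5.84 and did not rise in double against Ring1B deficient cells. Srgn fell there by 0.66, a call lost without any of the double deficient replicates or Ring1B deficient replicates 2 or 3. Sox17 (−2.32), Col4a1 (−2.22), Lama1 (−2.01), Col4a2 (−1.87), Tex13b (−1.75), Cyp26a1 (−1.49), Phlda1 (−1.41), Gata6 (−1.33) and Bmi1 (−1.19) were higher without Eed in both backgrounds, by less where Ring1B was missing. Gt(ROSA)26Sor (−3.50), Pla2g1b (−2.01), Id1 (−1.76), Stag3 (−1.67) and Cdkn1c (−1.42) fell in double against Ring1B deficient cells, while in Eed deficient against wild type cells only Cdkn1c was called, and higher. Iqcg (−1.75) fell in both contrasts, by more where Ring1B was missing.

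Above 0 were Meg3 (5.07), Rian (4.35), Nxf3 (3.48), Rarres1 (3.13), Neurod1 (2.64), Sycp1 (1.67), Plk2 (1.17) and Mdm2 (0.86). Meg3, Rian, Nxf3, Neurod1 and Mdm2 were lower in Eed deficient than in wild type cells.

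Of these 28 genes, 20 passed whichever array was left out. Gata6 missed the threshold without double deficient replicates 1 or 3, and Id1 without those or Ring1B deficient replicate 3. Plk2 passed in the leave-out of Ring1B deficient replicate 2 alone, Sycp1 in those of wild type replicate 1 and Eed deficient replicate 2, and Mdm2 in those of wild type replicate 1 and Eed deficient replicate 1. Ttr, Phlda1 and Iqcg each missed it in 8 of the 12 leave-outs. With 50 added before log2, Tex13b and Cyp26a1 also missed it.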

How the results depend on the processing

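Counts are given as higher and lower, first for double against Ring1B deficient cells (1781 and 836), then for the difference between backgrounds (99 and 167). Quantile normalization gave 1301 and 955, then 91 and 211; centring on the median 963 and 2225, then 62 and 279; leaving out the intensity trend 1824 and 664, then 87 and 140; the probe set with the largest spread 1666 and 736, then 64 and 130; every probe set tested separately 2640 and 1209, then 111 and 199. Adding 1 or 50 before log2 and dropping or tightening the filter kept all 4 counts within 1.5 times, and fitting the 6 arrays alone the first 2; the difference between backgrounds cannot be fitted on those 6. With 1 array left out the counts ranged from 983 to 1889 and from 341 to 908, then from 31 to 136 and from 61 to 182, lowest without double deficient replicate 3. The replicate number as a replicate block gave 2721 and 1652, then 541 and 719; same-numbered arrays of the 2 genotypes deviated together at r = 0.165, 0.397 and 0.0687. Over all 4 genotypes r was 0.165 to 0.431 for number 1, 0.265 to 0.614 for number 2 and −0.0477 to 0.179 for number 3. The numbers were not used as pairs because not every pair was over 0.1; a block shared by the arrays numbered 1 or 2 was not tested separately. Among named genes, other settings left 1289 values with direction and call kept, 60 no longer called, 7 newly called and 7 reversed, and leaving out 1 array 1331, 151, 4 and 2. With the probe set of largest spread Cbx7 was 0.19, Utf1 0.92 and Suz12 0.33. Ring1 was −0.12 under quantile normalization and −0.15 under centring, where Neurod1 was −0.075 and Xist −0.018. With 1 array left out Ttr ranged from −0.48, without Ring1B deficient replicate 3, to 1.16, and Xist from −0.076, without Ring1B deficient replicate 2, to 0.39. The cause of these shifts was not tested. The lowest signals, where detection calls were not used here, limit statements on dim genes.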

Other observations

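Chromosome medians of the double minus Ring1B deficient difference, over genes with a mean above 104 in at least 1 genotype, lay between −0.14 and 0.09, with −0.04 over all 7282 such genes. Chromosome 1 was lowest (−0.14), with 70 of 413 genes lower (16.9%, against 10% of all 7282), and its median in Ring1B deficient minus wild type cells was 0.16. The X chromosome was highest (0.09), with 47 of 260 genes higher (18.1%, against 10.7% of all 7282). On chromosome 6 the median was −0.04 in double minus Ring1B deficient cells and 0.42 in Eed deficient minus wild type cells. On chromosome 11 it was −0.02 in double minus Ring1B deficient cells, while double, Ring1B and Eed deficient minus wild type gave −0.25, −0.22 and −0.25. Xist, the RNA that coats the inactive X, averaged 141 ± 10.4 in double deficient and 124 ± 41.9 in Ring1B deficient cells and did not pass.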
